A study of Homo sapiens with 6 samples.

Results

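NRAS and HRAS, the RAS-like GTPases RALA and RALB, and 4 exchange factors that switch on the RAL proteins, RALGDS, RGL1, RGL2 and RALGPS2, are described here in HCT116 cells, an established human colorectal cancer cell line. These 8 genes, of 18750 in the count table, were taken by symbol from the GENCODE v29 annotation. They were chosen by symbol as a family with the fold changes between the groups, and so their CPM values in that contrast, already known. Values, fold changes and calls of these genes in that contrast are therefore a description, and none of them is used as a test. One group was transfected with a small interfering RNA against the long non-coding RNA AC010789.1 (si-AC010789.1) and the other with a negative control siRNA (siRNA-NC). Each group had 3 replicates. RNA was sequenced, and counts per transcript were summed per gene. Levels are given in CPM, that is, as counts scaled to a common library total with TMM factors (trimmed mean of M-values).

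RAS proteins are small GTPases at the inner face of the plasma membrane that pass signals from growth factor receptors while bound to GTP. RAL proteins are their close relatives, and a class of RAS effectors, RALGDS and its homologs RGL1 and RGL2, binds active RAS and loads RAL with GTP. RALGPS2 loads RAL through a similar catalytic domain without a RAS-binding domain, and active RAL acts on vesicle tethering through the exocyst.

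The ends of the coding sequences are shown for the 4 GTPases because a lipid is attached there, at a cysteine of the CAAX box, which holds the proteins at membranes. Each line has the last coding bases and the stop codon from the GENCODE v29 annotation of GRCh38, read along the coding strand, and the capitals mark the last 4 codons, which encode the CAAX box.
NRAS, chr1:114708535-114708564, minus strand: tgtatgggattgccaTGTGTGGTGATGtaa
HRAS, chr11:532636-532665, minus strand: tgcatgagctgcaagTGTGTGCTCTCCtga
RALA, chr7:39706216-39706245, plus strand: agaatcagagaaagaTGCTGCATTTTAtaa
RALB, chr2:120293231-120293260, plus strand: agttttaaagaaagaTGTTGCTTACTAtga
The coding sequences of NRAS and HRAS have 567 bases each, and 73.0% of the aligned bases were identical. RALA and RALB have 618 bases each, with 73.6% identical, and the longest identical run was 14 bases in the RAS pair and 13 bases in the RAL pair.

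The study set the microRNA miR-432-3p beside AC010789.1, so its seed (bases 2 to 8, in capitals) and the sites in these genes are shown. Matches to it were sought on the transcript strand of annotated 3′ UTRs, as CCATCCA (bases 2 to 8) or CATCCAA (bases 2 to 7 with an A opposite the first base), which overlap where CCATCCAA occurs. The mature sequence is from RefSeq (GRCh38.p14, chr14:100884544-100884564, plus strand), and the sites below are in a 3′ UTR of RALGPS2 on the plus strand of GRCh38, with the match in capitals.
hsa-miR-432-3p: cUGGAUGGcuccuccaugucu
RALGPS2, chr1:178918007-178918035: tagcttaaaatCCATCCAaaggaaaagag
RALGPS2, chr1:178919701-178919729: agtaatgggttCCATCCAttagcttttta
RALGPS2 was the only one of the 8 genes with either 7-base match in a 3′ UTR, and among all genes tested with a 3′ UTR 2973 of 12395 (24.0%) had one. RGL1 had no match in its counted transcript, and a match or its lack is a description of these letters alone.

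Total counts were between 11277222 and 13443866 per library, and 3 counts corresponded to 0.223 to 0.266 CPM. Replicates had a fitted coefficient of variation of 0.170 over genes and, for single transcripts, of 0.698. Labels number the libraries as replicates without naming separate cultures. The study calls them biological repeats and puts differences within a group down, as a possibility, to cells of different passage, which was not tested here. KRT8 and KRT18, keratins of simple epithelia, had mean levels of 719 and 395 CPM under siRNA-NC and of 534 and 419 CPM under si-AC010789.1, whereas the epithelial marker EPCAM had 3.62 and 4.97 CPM. Of the listed markers of epithelial and colorectal cells, 4 of 8 were counted, and LGALS4 was at or below the level of 3 counts. KRT19, CDX1, CDX2 and VIL1 had no counts listed. Markers of other cell types summed to between 49.8 and 59.3 CPM under siRNA-NC and to between 47.8 and 57.0 CPM under si-AC010789.1, with 5 of 9 counted and most of the sum from the collagen gene COL1A1. The macrophage marker CD68 had 5.33 to 8.30 CPM under siRNA-NC and 2.19 to 4.71 CPM under si-AC010789.1, and the collagen gene COL3A1 had 2.56 to 3.99 and 1.76 to 2.53 CPM, so that both were lower in all 3 si-AC010789.1 libraries. The endothelial marker VWF had at most 4 counts. The part of these genes in the results was not tested. The level of AC010789.1 was not analysed here, so the labels were not checked against the target.

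RGL1 was the member that stood apart between the groups, with a level 2.48-fold lower in si-AC010789.1. HRAS and NRAS were slightly higher in si-AC010789.1, and the other 5 genes had overlapping groups. All 8 genes passed the filter on low counts, and 1 of them, RGL1, had an adjusted p-value under 0.05 in edgeR's quasi-likelihood test over 13750 genes, of which 0.982% did. By the study's criteria (p under 0.05 without adjustment and a change of more than 1 on the log2 scale), RGL1 was again the 1 member taken, beside 0.778% of all genes tested. Leaving out any 1 of the 6 libraries left 0 of the 8 with an adjusted p-value under 0.05, while the log2 fold change of RGL1 stayed between −1.35 and −1.26. Groups did not overlap in 3 of the 8 genes, against 25.1% of all genes tested. The contrast chose the genes, so nothing is read from these counts, and in RNA from whole cultures fewer cells with a transcript and less of it per cell cannot be told apart.

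**Figure D1:**
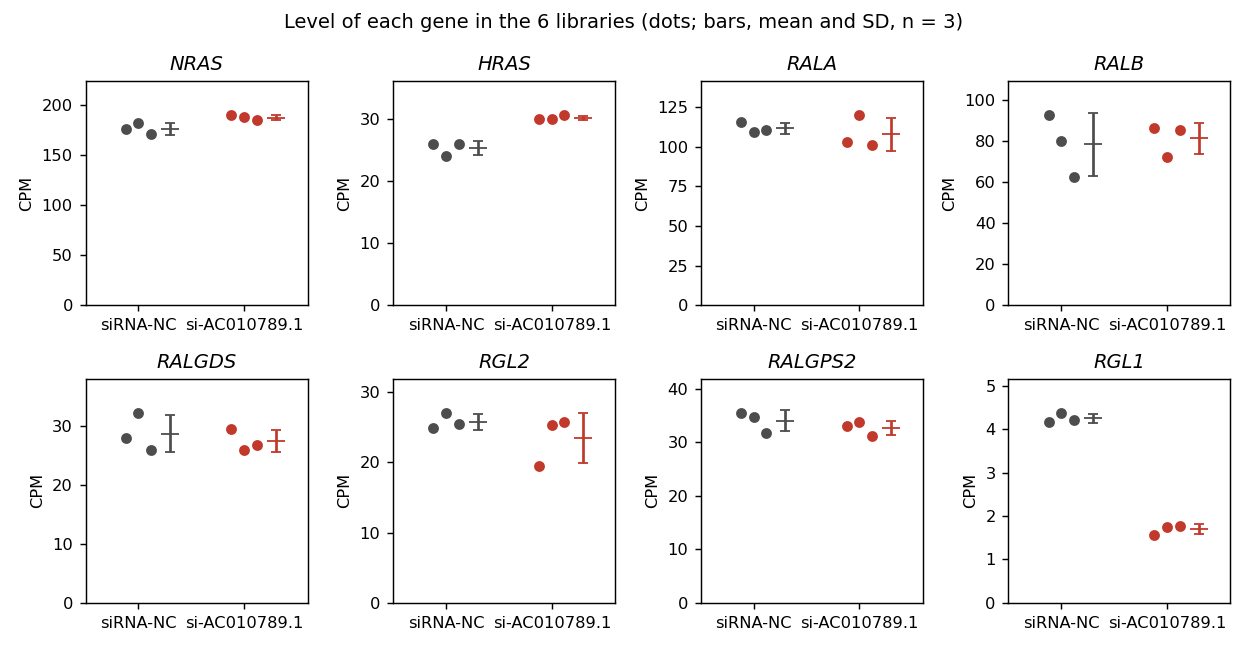
Level of each of the 8 genes in CPM (vertical axis, from 0) in the 3 siRNA-NC libraries (grey dots) and the 3 si-AC010789.1 libraries (red dots), with bars for mean and SD. RGL1 lies between 4.17 and 4.37 CPM under siRNA-NC and between 1.57 and 1.78 CPM under si-AC010789.1, HRAS and NRAS are separate by less, and the other genes overlap.

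Of the RAS GTPases, NRAS (ENSG00000213281.4, chr1:114704469-114716894, minus strand) had 175, 182 and 170 CPM under siRNA-NC replicates 1 to 3 and 189, 187 and 185 CPM under si-AC010789.1 replicates 1 to 3. All 3 si-AC010789.1 values lay above the siRNA-NC values, by a gap smaller than the spread within siRNA-NC. The log2 fold change was 0.09 (SE 0.044, n = 3 per group). The separation depended on the scaling, because with the factors fitted to single transcripts siRNA-NC replicate 2 and si-AC010789.1 replicate 3 both stood at 188 CPM for NRAS-201, which carried all NRAS counts.

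HRAS (ENSG00000174775.16, chr11:532242-537287, minus strand) had 25.9, 23.9 and 25.9 CPM under siRNA-NC and 29.9, 30.0 and 30.5 CPM under si-AC010789.1. The groups did not overlap. The SD was 1.14 CPM over the 3 siRNA-NC libraries and 0.356 CPM over the 3 si-AC010789.1 libraries, a difference in spread that was not tested. The log2 fold change was 0.26 (SE 0.074), and it stayed between 0.22 and 0.28 with any library left out. HRAS-201, the main coding transcript, held 71.6% to 78.8% of the HRAS counts in a library and was also higher in all 3 si-AC010789.1 libraries. Transcripts with the coding length of 567 bases held 79.5% to 86.4% of the counts, and those with a shorter coding sequence of 510 bases held 5.07% to 11.7%.

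The summed level of neither RAL GTPase differed between the groups beyond the spread of its replicates. RALA (ENSG00000006451.7, chr7:39623483-39708124, plus strand), which drives exocyst-dependent delivery of vesicles, had 115, 109 and 110 CPM under siRNA-NC and 103, 120 and 101 CPM under si-AC010789.1, which is −0.05 (SE 0.078) as a log2 fold change. The highest and the lowest RALA values were both in si-AC010789.1. RALA-201 carried 94.2% to 98.1% of its counts.

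RALB (ENSG00000144118.13, chr2:120240064-120294713, plus strand), which shares the exocyst as a partner and also acts through the kinase TBK1, had 92.7, 80.3 and 62.3 CPM under siRNA-NC and 86.4, 72.5 and 85.3 CPM under si-AC010789.1. Its siRNA-NC libraries were the most spread of the 8 genes, the highest being 1.49 times the lowest. The log2 fold change of 0.05 (SE 0.15) became −0.089 without siRNA-NC replicate 3. RALB-207, annotated as a processed transcript without coding sequence, held 46.3% to 54.0% of the RALB counts under siRNA-NC and 55.7% to 57.4% under si-AC010789.1. Protein-coding transcripts held 46.0% to 51.9% and 41.9% to 44.3%. Neither share overlapped between the groups, which was not tested and rests on how shared reads were divided. The coding transcript RALB-205, which is annotated with an incomplete coding sequence of 515 bases, held 20.5% to 33.4% over all libraries.

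Among the exchange factors, RGL1 (ENSG00000143344.15, chr1:183636085-183928531, plus strand) had 47, 58 and 56 counts under siRNA-NC and 18, 22 and 22 counts under si-AC010789.1. These are 4.17, 4.37 and 4.20 CPM against 1.57, 1.76 and 1.78 CPM, so the lowest siRNA-NC library stood above the highest si-AC010789.1 library. The log2 fold change was −1.31 (SE 0.17 in edgeR), and leaving out each library in turn gave values from −1.35 to −1.26. Fits that leave out a library share the others, so that range is not a margin of error. DESeq2, another program, gave −1.31 with a larger SE of 0.34, so the precision at these low counts depended on the program. All counts came from ENST00000304685, 1 of 2 annotated transcripts, which has 19 exons and a coding sequence of 2409 bases, and its log2 fold change as a single transcript was −1.32 (SE 0.26). The exons of RGL1 shared no bases with those of another annotated gene. In both groups RGL1 had the lowest level of the 8 genes.

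RALGDS (ENSG00000160271.15, chr9:133097720-133149334, minus strand), the prototype of the family, had 28.0, 32.3 and 26.0 CPM under siRNA-NC and 29.5, 26.0 and 26.9 CPM under si-AC010789.1. The groups overlapped, and the log2 fold change of −0.07 (SE 0.11) became 0.023 without siRNA-NC replicate 2, the highest library. Coding transcripts held 54.3% to 64.5% of the RALGDS counts. The largest, RALGDS-205, moved between 21.3% and 40.4%, whereas RALGDS-213, a retained intron transcript, had 35, 0 and 25 counts under siRNA-NC and 42, 51 and 0 counts under si-AC010789.1. RALGDS shares 3028 exon bases with AL162417.1 on the same strand, for which no counts are listed, so reads of both genes may be counted as RALGDS.

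RGL2 (ENSG00000237441.9, chr6:33291654-33299324, minus strand) had 24.8, 27.0 and 25.4 CPM under siRNA-NC and 19.4, 25.3 and 25.7 CPM under si-AC010789.1. Only si-AC010789.1 replicate 1 lay below the siRNA-NC range, and the log2 fold change was −0.13 (SE 0.12). Within the groups RGL2 transcripts traded counts. The retained intron transcript RGL2-243 had 94, 151 and 13 counts under siRNA-NC and 87, 6 and 71 counts under si-AC010789.1, and the coding transcript RGL2-247 had 19, 20 and 110 counts against 23, 87 and 48 counts. The libraries with few RGL2-243 counts, siRNA-NC replicate 3 and si-AC010789.1 replicate 2, had the most RGL2-247 counts. Their sum varied less, from 93 to 171 counts, and the share of coding transcripts of RGL2 was between 6.70% and 34.3%. RGL2 shares 724 exon bases with PFDN6 on the other strand (488 to 628 counts per library), and since strand-specific counting was not stated, reads of the pair may be mixed.

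RALGPS2 (ENSG00000116191.17, chr1:178725147-178921841, plus strand), which carries the miR-432-3p matches shown above, had 35.5, 34.8 and 31.7 CPM under siRNA-NC and 32.9, 33.8 and 31.2 CPM under si-AC010789.1. The groups overlapped, with a log2 fold change of −0.06 (SE 0.079). Coding transcript RALGPS2-203, in whose 3′ UTR both matches lie, held 58.6% to 87.0% of the counts. Both matches also lie in the 3′ UTR of the coding transcript RALGPS2-204, which held 4.68% to 19.9%. The retained intron transcript RALGPS2-209 had 61, 78 and 64 counts under siRNA-NC and 70, 15 and 12 counts under si-AC010789.1, so si-AC010789.1 replicate 1 stood with the siRNA-NC libraries. A stretch of 273 exon bases of RALGPS2 is shared with the antisense gene AL449106.1, for which no counts are listed.

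Of 62 annotated transcripts of the 8 genes, 56 were in the table and 32 passed the filter. Among those 32, 0 had an adjusted p-value under 0.05 in edgeR's quasi-likelihood test (6 of all 44281 transcripts, 0.0135%, did) and 1, that of RGL1, had an unadjusted p-value under 0.05. How reads common to several transcripts of a gene were divided was not stated, so gene sums carry the results.

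**Figure D2:**
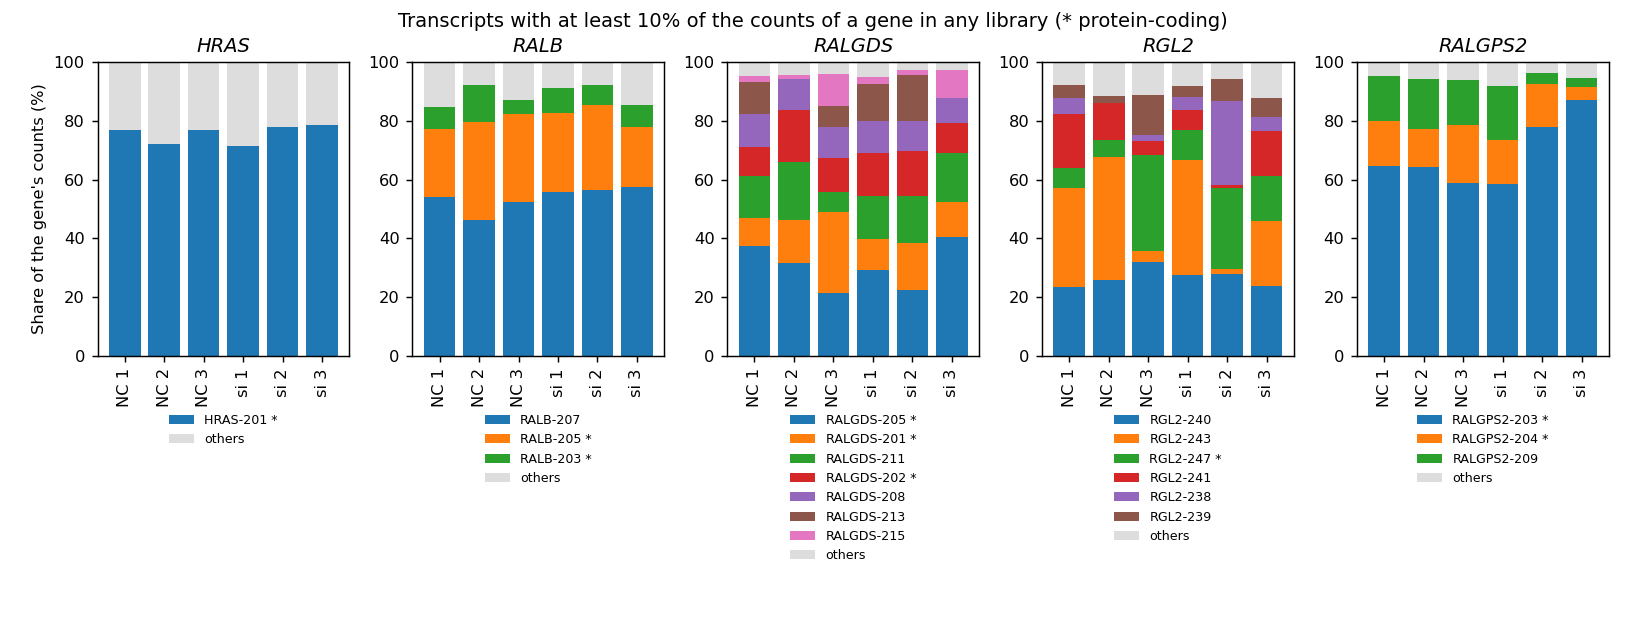
Share of a gene's counts (percent, vertical axis) held by each transcript with at least 10% in any library, for HRAS, RALB, RALGDS, RGL2 and RALGPS2, in the siRNA-NC (NC) and si-AC010789.1 (si) libraries. RALB-207 holds 46.3% to 57.4%, with more in every si-AC010789.1 library than in any siRNA-NC library. RGL2-243 moves between 1.89% and 42.2% within the groups.

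Levels of different genes were compared per transcript length, as TPM (transcript counts per kilobase, scaled to the same total in every library) computed from the counts over the 6 libraries, a comparison that does not use the contrast between the groups. RALB had the highest mean TPM (140 ± 16.3, SD, n = 6 libraries), followed by RALA (80.9 ± 4.35), NRAS (78.8 ± 3.46) and HRAS (62.2 ± 7.16). The exchange factors were lower, with RGL2 at 32.9 ± 4.84 TPM, RALGDS at 18.5 ± 1.70 TPM, RALGPS2 at 16.9 ± 2.76 TPM and RGL1 at 1.13 ± 0.528 TPM. Of the 7 neighbour pairs in this order, 5 had the same order in 6 of 6 libraries (exact two-sided sign-flip permutation test, p = 0.03125, the smallest 6 libraries allow, adjusted p = 0.04375 over the 7 pairs). The pairs came from the order in these same libraries, so the p-values only describe how steadily the libraries repeated it. RALA and NRAS did not differ beyond their spread (RALA higher in 3 of 6 libraries, exact permutation test, adjusted p = 0.4375), nor did RALGDS and RALGPS2 (RALGDS higher in 4 of 6 libraries, adjusted p = 0.182). The place of RALB depended on the length used, because much of it was counted in short transcripts. With counts divided by the merged exon length of a gene, NRAS was highest (127 TPM), RALA (92.9 TPM) and RALB (85.2 TPM) were not separated, and the order from HRAS to RGL1 was the same. By that length RGL2 stood at 16.8 TPM, RALGDS at 11.5 TPM and RALGPS2 at 11.3 TPM. Transcripts of types other than protein-coding held 65.7% to 93.3% of the RGL2 counts, so its level is mostly not that of coding RNA.

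Together the 4 exchange factors summed to 70.8, 76.6 and 75.4 TPM under siRNA-NC and to 64.0, 61.2 and 68.6 TPM under si-AC010789.1. The sum was thus lower in all 3 si-AC010789.1 libraries, which was not tested. RGL1 made up 2.24%, 2.17% and 2.08% of that sum under siRNA-NC and 0.928%, 1.09% and 0.985% under si-AC010789.1. RGL1 itself had 1.57 to 1.66 TPM under siRNA-NC and 0.594 to 0.676 TPM under si-AC010789.1. Most of the difference in the sum therefore lay in the other 3 exchange factors, each with overlapping groups. RGL2 took between 37.6% and 52.2% in any library. The summed TPM of RALA and RALB was 2.56 to 3.54 times that of the exchange factors. These values depended on the length used, and with the merged exon length the exchange factors summed to 37.3 to 46.2 TPM, RGL1 took 2.46% to 5.97% of it over the 6 libraries, and RALA and RALB together stood at 3.87 to 4.79 times the sum.

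**Figure D3:**
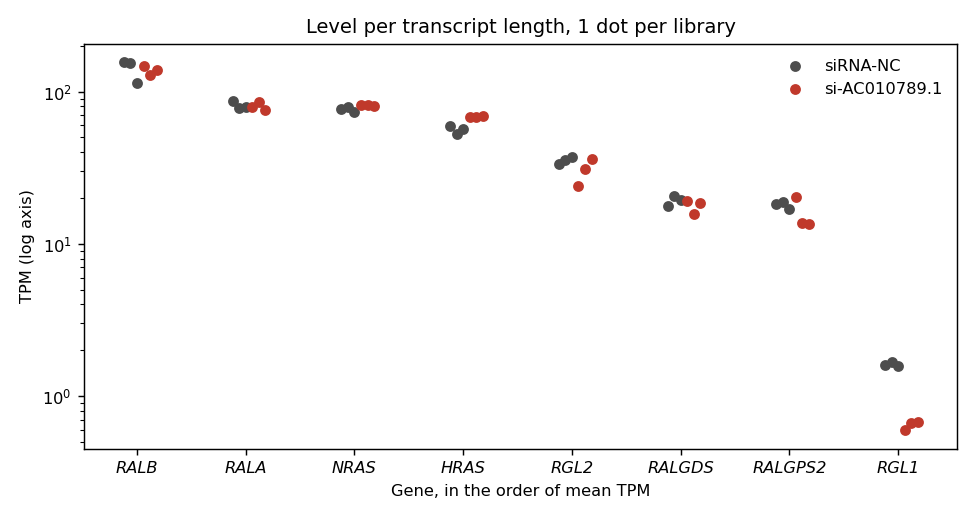
TPM of the 8 genes on a log axis, ordered by mean TPM, with a dot for each siRNA-NC (grey) and si-AC010789.1 (red) library. RALB is highest at a mean of 140 TPM, RALA and NRAS lie together near 80.9 and 78.8 TPM, and RGL1 lies below the rest in every library at a mean of 1.13 TPM.

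Genes whose log2 CPM followed that of RGL1 most closely over the 6 libraries, among 9972 genes with a mean of at least 10 CPM, were TMEM203 (Pearson r = 0.996), LRCH1 (r = 0.995) and KIF13A (r = 0.995). The libraries share the groups and the scaling, so these are descriptions. KIF13A, a kinesin motor, had 113.7 ± 3.73 CPM under siRNA-NC and 80.9 ± 2.25 CPM under si-AC010789.1, TMEM203 had 39.8 ± 0.801 and 30.9 ± 0.786 CPM, and LRCH1 had 32.1 ± 0.469 and 25.9 ± 0.220 CPM (SD, n = 3).

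The surrounding pathway was covered by 8 lists with 97 genes, none of them among the 8 above, of which 90 were in the table and 80 were tested. One exocyst gene, EXOC6B, passed the threshold, which is 1 of 80 against 0.982% of all genes tested. Log2 fold changes were positive for 43 of the 80 and negative for 37, with a median of 0.01 beside −0.00066 for all genes. Groups did not overlap for 19 of the 80 (23.8%), against 25.1% of all genes. By list this share ran from 0% for the other RAL exchange factors and the RAL GTPase-activating complexes to 44.4% for RAS exchange factors and adaptors (4 of 9). It was 43.8% for RAL effectors and the exocyst (7 of 16). The lists are small and were written with earlier results known, so nothing is read from these shares. An unadjusted p-value under 0.05 was found for 13 of the 80, against 17.2% of all genes.

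RAL effectors and the exocyst had 16 genes tested, with 0 higher and 1 lower past the threshold and a median log2 fold change of 0.03. EXOC6B, a subunit of the exocyst, had 75.6, 83.5 and 72.8 CPM under siRNA-NC and 51.9, 54.3 and 53.4 CPM under si-AC010789.1. It fell by 0.54 on the log2 scale (SE 0.071, edgeR's quasi-likelihood test, adjusted p = 0.0354), and its call was lost when any 1 library was left out. Its paralog EXOC6 had overlapping groups, with 28.1 ± 2.38 CPM under siRNA-NC and 31.3 ± 2.68 CPM under si-AC010789.1. EXOC2, an exocyst subunit that binds active RAL, had 58.7 ± 2.60 and 69.0 ± 5.58 CPM. REPS2, an EH-domain protein of endocytosis, had 23.5 ± 2.75 and 17.6 ± 1.09 CPM. EXOC2 and REPS2 had groups that did not overlap, with adjusted p-values of 0.222 and 0.147 in edgeR.

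The lists of other RAL exchange factors and of RAL GTPase-activating complexes had 0 of 2 and 0 of 3 tested genes past the threshold. Of the other RAL exchange factors, RGL3 had 8.19 ± 1.28 CPM under siRNA-NC and 9.27 ± 1.87 CPM under si-AC010789.1, and RALGPS1 had 11.0 ± 0.888 and 11.3 ± 0.412 CPM. RGL4 had at most 2 counts in a library and was not tested. The 3 subunit genes of the RAL GTPase-activating complexes, RALGAPA1, RALGAPA2 and RALGAPB, which switch RAL off, had log2 fold changes between 0.02 and 0.08.

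Among RAS exchange factors and adaptors 9 of 14 genes were tested, 0 passed the threshold, and the median log2 fold change was −0.03. FRS2, the docking protein of fibroblast growth factor receptors, had 332, 807 and 840 counts under siRNA-NC and 272, 247 and 264 counts under si-AC010789.1. Its log2 fold change was −1.24 (SE 0.29, adjusted p = 0.110 in edgeR), and without siRNA-NC replicate 1, which stood near the other group, it was −1.52 with an adjusted p of 0.0356. PTPN11, the phosphatase SHP2 that helps activate RAS, had 331 ± 13.6 CPM under siRNA-NC and 387 ± 3.67 CPM under si-AC010789.1 (adjusted p = 0.0824 in edgeR). GAB1, its docking partner, had 14.9 ± 0.796 and 12.3 ± 1.20 CPM without overlap.

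GTPase-activating proteins of RAS and their partners had 10 of 13 genes tested, 0 past the threshold and a median of 0.02. RASA1 had 43.2 ± 0.834 CPM under siRNA-NC and 48.6 ± 4.23 CPM under si-AC010789.1, whereas RASA2 had 42.4 ± 0.957 and 37.9 ± 0.874 CPM. Both encode proteins that switch RAS off, and both had separate groups in opposite directions. In the list of RAS lipid processing and trafficking, which holds enzymes of the CAAX box shown above, enzymes of palmitate turnover and chaperones, all 14 genes were tested and 0 passed, with a median of −0.05. RCE1, the protease that trims the CAAX box, had 17.4 ± 1.12 CPM under siRNA-NC and 22.7 ± 2.09 CPM under si-AC010789.1 (adjusted p = 0.146 in edgeR).

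Other RAS effectors had 11 of 13 genes tested, 0 past the threshold and a median of −0.02, and PLCE1, a phospholipase C bound by RAS, had 7.13 ± 0.809 and 8.72 ± 0.474 CPM. Of the related small GTPases 15 of 21 were tested and 0 passed, with a median near 0 (0.0044). DIRAS1 had 25.2, 24.7 and 27.5 CPM under siRNA-NC and 11.0, 8.55 and 17.3 CPM under si-AC010789.1, and its log2 fold change was −1.07 (SE 0.25, adjusted p = 0.110 in edgeR). RAP2B had 75.2 ± 6.29 and 57.6 ± 3.59 CPM, and RRAS2 had 33.1 ± 2.78 and 27.4 ± 3.87 CPM. All 3 had groups that did not overlap, and none passed the threshold in edgeR.

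**Figure D4:**
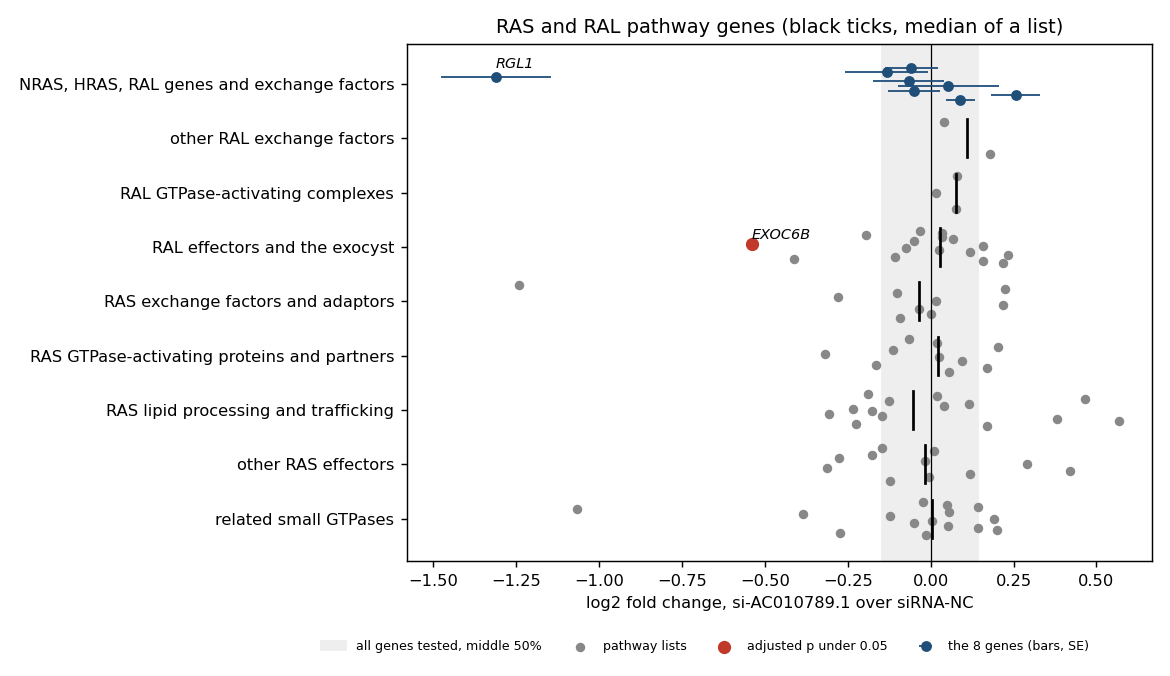
Log2 fold change of si-AC010789.1 over siRNA-NC (horizontal axis) for the 8 genes (blue, bars for SE) and for the 80 tested genes of the pathway lists (grey, black ticks for the median of a list), with the middle 50% of all genes tested shaded. RGL1 at −1.31 lies apart from the other 7 genes, EXOC6B (red) is the list gene past the threshold, and FRS2 at −1.24 and DIRAS1 at −1.07 are farther from 0 without passing it.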

How the data were processed

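HCT116 RNA from 3 si-AC010789.1 and 3 siRNA-NC replicates was analysed, grouped by sample labels. The authors deposited whole-number counts per Ensembl transcript, without normalization, from paired-end TruSeq libraries. The submitters' processing notes name CASAVA 1.8, TopHat2 2.0.6 and the builds GRCh38 and mm10. The counting program and its use of strand are not given in the sources used here. Of 98886 transcripts, 98782 were matched to GENCODE v29 and summed to 18750 genes. Genes and transcripts were tested with edgeR 4.0.16 (TMM, filterByExpr with minimum count 10 and total 15, quasi-likelihood fit, Benjamini-Hochberg adjustment) in R 4.3.3, checked on simulated data. An SE from edgeR is the absolute log2 fold change over the square root of its F statistic, and DESeq2 reports its own. The study's criteria were set for Cuffdiff, which needs alignments and was not run. TPM divided each transcript's counts by its GENCODE length, and coding sequences were aligned globally. The design assumed values per gene, so transcripts were summed first.

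The 8 genes and the lists, written by hand, were chosen with earlier results of these data known. List genes are named where an adjusted p was under 0.05, or, up to 3 per list, by the largest absolute log2 fold change among separate groups with a mean of at least 1 CPM. The values of 1 gene that this rule takes are not reported here. RGL3, RALGPS1, RGL4, EXOC6 and the RALGAP genes were named after their values were seen, and transcripts with at least 10% of a gene's counts in any library could be named. Floors of 3 counts cover counting error only. Alternatives were DESeq2 1.42.0, its size factors in edgeR, a minimum mean of 1 CPM or no filter at all, the replicate number as a block, the merged exon length, and leaving out each library.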

Additional observations from a re-analysis of the deposited data

How the results depend on the processing

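With DESeq2 in place of edgeR 520 genes were called instead of 135, 5 pathway genes instead of 1 (EXOC6B, FRS2, DIRAS1, PTPN11 and RAP2B) and 676 transcripts instead of 6. DESeq2 gave no adjusted p to 3472 genes, RGL1 among them (log2 fold change −1.31, SE 0.34). RGL1 could therefore neither pass nor fail the threshold there, and 0 of the other 7 genes passed. With no filter on low counts 69 genes, 0 pathway genes and 0 transcripts were called, and RGL1 kept its call. With the replicate number as a block 0 genes, 0 of the 8 genes, 0 pathway genes and 0 transcripts were called (RGL1 log2 fold change −1.31, adjusted p = 0.171). Labels give both groups numbers 1 to 3, but deviations of same-numbered libraries correlated at 0.111, 0.0109 and 0.0164, and not every library correlated best with its own number. The study mentions different cell passages between repeats but not that a number marks a passage, so the block was not used in the report. Leaving out 1 library at a time gave 12 to 37 genes called, 0 of the 8 genes, 0 to 1 pathway genes (FRS2) and 0 to 6 transcripts, and RGL1 had adjusted p-values from 0.0977 to 0.113 in edgeR, each with fewer libraries. The log2 fold change of RALB ranged from −0.089 (without siRNA-NC replicate 3) to 0.19, and that of RALGDS from −0.14 to 0.023 (without siRNA-NC replicate 2). Of the 5 neighbour pairs in 1 order in every library, 4 held with the merged exon length and 5 in each group alone or without any 1 library. RGL1 rests on 18 to 58 counts per library.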
